A study of Arabidopsis thaliana with 18 samples.

Results

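The genes described here are 182 of the 25537 genes in the deposited table of Arabidopsis thaliana root RNA. They were chosen from the mean transcript abundance over the 3 libraries of each genotype, in TPM, a unit that accounts for transcript length and library depth. A gene entered the set when 3 conditions held. Its mean in the mutant rab8d-2 was at least 1 TPM. That mean was at least 2 times the wild-type (WT) mean, with 0.1 TPM added to both. Its mean in each of 4 double mutants that also carry rab8d-2 was at most 0.75 of the mean in rab8d-2 itself. The first 2 conditions held for 756 genes, of which 103 stayed above 0.75 in all 4 double mutants and 471 were at or below 0.75 in some double mutants only. Since the levels in rab8d-2 against WT, and in the double mutants against rab8d-2, chose the members, they are given below as descriptions with no test. The differences of the double mutants from WT and from each other were no condition of the choice and were tested, although the means on both sides of them entered its conditions.

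The RNA came from untreated roots of 4-day-old seedlings, grown on medium with sucrose in 16 h of light and 8 h of dark. WT plants (Col) and the single mutant rab8d-2 were each sequenced in 3 libraries. So were 4 double mutants, in which rab8d-2 was combined with nac085-1, nac044-1, sog1-1 or atm-2. All 4 double mutants therefore share rab8d-2 with the single mutant, and plants with atm-2, sog1-1, nac044-1 or nac085-1 alone were not analysed here. Library totals were 20103637 to 20471204 estimated counts. The labels call the 3 libraries of a genotype biological replicates without saying that the plants were grown separately, so the p-values measure only the spread between these libraries, which may be technical.

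The targeted genes were read first, as a check of the labels. RAB8D RNA (locus AT4G20360, RABE1b in the reference annotation) averaged 77.0 TPM in WT, 10.1 TPM in rab8d-2 and 11.1 to 15.6 TPM in the double mutants. For the rab8d-2 single mutant 1 label field says WT while the titles say rab8d-2, and the titles were followed. ATM RNA averaged 5.89 TPM in WT, 7.56 TPM in rab8d-2 and 0.77 TPM in atm-2 rab8d-2. SOG1 RNA averaged 18.8 to 22.0 TPM in the 6 genotypes, so it checks no label. NAC085 RNA averaged 0.82 TPM in WT, 2.39 TPM in rab8d-2 and 1.31 TPM in nac085-1 rab8d-2. NAC044 RNA averaged 4.51 TPM in WT, 17.6 TPM in rab8d-2 and 144.3 TPM in the libraries labelled nac044-1 rab8d-2. A level above that of the single mutant goes against a loss of the transcript, and these libraries are called by their label throughout. The root label was checked against marker lists. Endodermis markers summed to 569.3 to 843.9 TPM per library and root hair markers to 280 to 456.8 TPM, while 6 shoot markers summed to 13.7 to 23.67 TPM.

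RAB8D encodes the elongation factor EF-Tu of plastids, which brings aminoacyl-tRNA to the plastid ribosome. ATM is a kinase that responds to DNA breaks, and SOG1 is the transcription factor it activates, a plant counterpart of p53 in role. NAC044 and NAC085 are transcription factors induced by SOG1 that take part in cell cycle arrest after DNA damage. Some of the 182 genes are best known from the shoot epidermis. In shoots, the outer cell layer expresses HD-ZIP class IV factors such as ATML1 and PDF2, elongates fatty acids to very long chains, and exports them through ABC transporters to form wax and cutin, the cuticle. Roots have a suberised barrier in the endodermis and a cutin-like layer on the root cap, but most of the root surface carries no such cuticle.

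Most of the 182 genes were scarce in WT roots. The median gene averaged 0.63 TPM in WT and 4.18 TPM in rab8d-2, a median ratio of 4.93 on the scale with 0.1 TPM added. The ratio was at least 4 for 116 genes and at least 10 for 53 genes, and 16 genes had no reads in any WT library. In rab8d-2, 46 genes averaged at least 10 TPM and 42 averaged less than 2 TPM. All 3 rab8d-2 libraries lay above all 3 WT libraries for 169 of the 182 genes, and above all 12 libraries of the double mutants for 141. The conditions of the choice favoured both separations, so these counts only describe the members.

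The double mutants brought the RNA of these genes part of the way towards WT. The median gene stood at 48.6% of its rab8d-2 level in atm-2 rab8d-2, 45.4% in sog1-1 rab8d-2, 44.4% in those labelled nac044-1 rab8d-2 and 42.2% in nac085-1 rab8d-2. Put against the distance from WT to rab8d-2, a median of 34.9%, 31.4%, 33.3% and 30.7% of the difference was left, in the same order. The mean was at or below that of WT for 28 genes in atm-2 rab8d-2, 22 in sog1-1 rab8d-2, 20 in those labelled nac044-1 rab8d-2 and 28 in nac085-1 rab8d-2. For 37 genes the mean was at most 50% of the rab8d-2 level in all 4. Taken over all 756 genes that met the first 2 conditions, each double mutant alone would have kept 396 (52.4%), 398 (52.65%), 440 (58.2%) and 445 (58.9%).

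**Figure D1:**
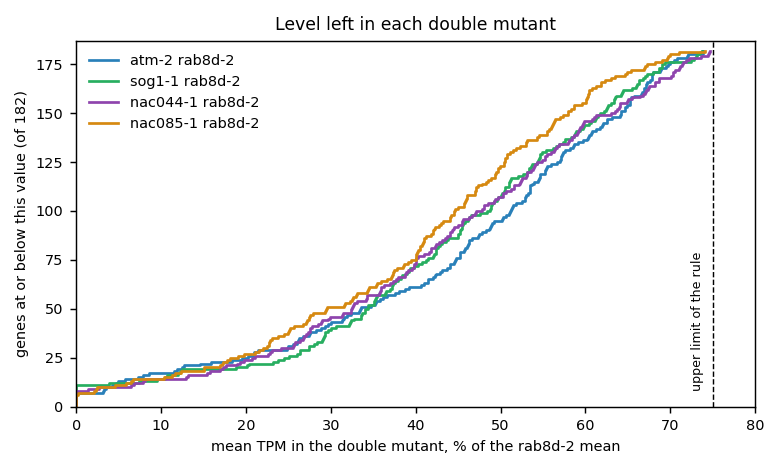
Cumulative number of the 182 genes (vertical axis) against the mean TPM in a double mutant as a percent of the mean in rab8d-2 (horizontal axis), 1 line per double mutant. All lines end at 75% because the choice of genes set that limit; the medians lie between 42.2% and 48.6%.

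The limits of the choice were not natural gaps. The genes nearest to the level limit were AT5G42223 at 1.0 TPM inside and RLP43 at 0.9967 TPM outside. The nearest to the ratio limit were EXLB1 at 2.005 inside and AT3G18800 and AT1G29775 at 1.964 outside. The nearest to the limit on the double mutants were RGL3, with 0.7464 of its rab8d-2 level in its highest double mutant, inside, and AT3G59440, with 0.7592, outside.

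Of the 182 genes, 146 passed edgeR's filter on low counts and could be tested in the double mutants, and 36 could not. A gene that passed through its reads in rab8d-2 alone was bound to be low elsewhere, so the counts of called genes below describe the 146 and support nothing about the set. P-values come from edgeR's quasi-likelihood test on the estimated counts of all 18 libraries, adjusted by Benjamini-Hochberg over the 19981 genes tested, and a gene is called at an adjusted p under 0.05. The value after ± is the standard error for a log2 fold change and the SD for a mean, with n = 3 libraries.

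A group of 15 members, called epidermis and cuticle genes here, was chosen after the values were seen. It joins members that are HD-ZIP class IV factors, 3-ketoacyl-CoA synthases or wax and cutin genes, with PDF1 added. KCS3, KCS8, KCS12 and KCS16 entered as 3-ketoacyl-CoA synthases alone and are not on the wax and cutin list. The 15 genes are ATML1, PDF2, HDG4, PDF1, MYB94, KCS3, KCS6, KCS8, KCS12, KCS16, ABCG11, ABCG12, BDG1, HTH and LACS1. Their rab8d-2 level was 2.6 to 17.3 times that of WT. In the double mutants their median was 53.5% of the rab8d-2 level with atm-2, 40.3% with sog1-1, 53.0% in the libraries labelled nac044-1 rab8d-2 and 41.0% with nac085-1. All 15 were called higher than in WT in each of the 4 double mutants. Of all genes tested, 35.1% were called higher than WT in atm-2 rab8d-2, 28.8% in sog1-1 rab8d-2, 29.3% in those labelled nac044-1 rab8d-2 and 32.5% in nac085-1 rab8d-2.

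ATML1 and PDF2 are paired homeodomain factors that specify epidermal cells in shoots and embryos. ATML1 (AT4G21750) was read at 0.29, 0.33 and 0.33 TPM in WT and at 5.04, 3.87 and 3.86 TPM in rab8d-2. It stood at 2.51, 2.34 and 2.30 TPM in atm-2 rab8d-2, at 2.22, 2.74 and 2.11 TPM in sog1-1 rab8d-2, at 2.64, 2.37 and 2.56 TPM in the libraries labelled nac044-1 rab8d-2 and at 1.86, 1.65 and 1.70 TPM in nac085-1 rab8d-2. The 6 genotypes thus formed 3 levels, with the double mutants between WT and rab8d-2 and no overlap with either. Against WT, ATML1 was higher by 2.86 ± 0.19 on the log2 scale in atm-2 rab8d-2 (adjusted p = 1.86e-18) and by 2.40 ± 0.20 in nac085-1 rab8d-2 (1.57e-14). The nac085-1 double mutant was the lowest, with a log2 difference from atm-2 rab8d-2 of -0.47 ± 0.13 (adjusted p = 0.00191), and no pair of the other 3 was called different.

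PDF2 (AT4G04890) averaged 0.57 ± 0.09 TPM in WT and 7.41 ± 0.23 TPM in rab8d-2. Its mean was 3.98 TPM in atm-2 rab8d-2, 2.98 TPM in sog1-1 rab8d-2, 2.40 TPM in the libraries labelled nac044-1 rab8d-2 and 3.04 TPM in nac085-1 rab8d-2. Here the libraries labelled nac044-1 rab8d-2 were the lowest of the double mutants, with a log2 difference from atm-2 rab8d-2 of -0.73 ± 0.11 (adjusted p = 4.50e-08). For ATML1 the same difference was 0.06 ± 0.12 and not called (adjusted p = 0.654). HDG4, another HD-ZIP class IV factor, averaged 0.23 TPM in WT, 2.40 TPM in rab8d-2 and 0.893 to 1.47 TPM in the double mutants. Among the 16 HD-ZIP class IV genes of the table these 3 were the only ones that met the first 2 conditions. The summed level of the 16 genes was 82.25 to 90.21 TPM in WT and 114.2 to 125.2 TPM in rab8d-2, so the family as a whole was present in WT roots.

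PDF1 (AT2G42840), an epidermis-specific proline-rich protein of shoot meristems, was the most abundant of the 15. Its libraries gave 3.16, 4.84 and 3.71 TPM in WT and at 44.58, 46.63 and 47.17 TPM in rab8d-2. It stood at 21.02, 21.52 and 19.29 TPM in atm-2 rab8d-2, at 14.62, 16.46 and 13.32 TPM in sog1-1 rab8d-2, at 15.71, 16.25 and 12.86 TPM in the libraries labelled nac044-1 rab8d-2 and at 16.93, 18.49 and 18.09 TPM in nac085-1 rab8d-2. The rab8d-2 libraries lay far above every other library, and atm-2 rab8d-2 was the highest double mutant, with no overlap with the others. Against WT it was higher by 2.36 ± 0.11 log2 in atm-2 rab8d-2 (adjusted p = 2.06e-24) and by 1.89 ± 0.12 in the libraries labelled nac044-1 rab8d-2 (4.08e-19).

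HD-ZIP class IV factors bind the L1 box, searched here as TAAATGCA or TAAATGTA on both strands. The window was 250 bases before to 50 bases after the annotated gene start in the RefSeq sequence of TAIR10.1, a build the deposited table does not name. It held an L1 box in 4 of the 15 genes (26.7%), in 14 of the 175 members with a protein-coding annotation (8.0%), in 34 of 555 other protein-coding genes that met the first 2 conditions (6.13%) and in 1236 of 24252 protein-coding genes of the table (5.10%). In windows that reached 1000 bases before the start, it was in 7 of 15, 35 of 175, 117 of 555 and 3909 of 24252. The group and the motif were chosen after the values were seen, and PDF1, 1 of the 4, was added to the group by hand. The share among the 15 therefore only describes them. These are matches of letters and not shown sites. The promoters of 3 of the 4 genes are printed as examples of such matches. Binding of ATML1, PDF2 or HDG4 to them was not tested. Capitals mark the L1 box, positions count from 0 at the first base of the gene, and each sequence is written on the strand of its gene. ABCG11 lies on the plus strand of chromosome 1 (boxes at -82 and -47), MYB94 on the minus strand of chromosome 3 (box at -165) and PDF1 on the minus strand of chromosome 2 (box at 30).
ABCG11: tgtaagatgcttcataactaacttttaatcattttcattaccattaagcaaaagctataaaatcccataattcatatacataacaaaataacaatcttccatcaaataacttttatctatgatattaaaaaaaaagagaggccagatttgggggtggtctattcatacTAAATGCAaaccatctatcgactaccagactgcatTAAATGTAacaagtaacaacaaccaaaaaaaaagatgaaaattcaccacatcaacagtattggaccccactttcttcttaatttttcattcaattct
MYB94: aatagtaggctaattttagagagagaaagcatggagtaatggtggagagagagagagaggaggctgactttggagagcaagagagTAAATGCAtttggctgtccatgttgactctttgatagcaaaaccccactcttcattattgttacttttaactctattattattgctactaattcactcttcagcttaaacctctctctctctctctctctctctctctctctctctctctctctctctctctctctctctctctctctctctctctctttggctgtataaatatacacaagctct
PDF1: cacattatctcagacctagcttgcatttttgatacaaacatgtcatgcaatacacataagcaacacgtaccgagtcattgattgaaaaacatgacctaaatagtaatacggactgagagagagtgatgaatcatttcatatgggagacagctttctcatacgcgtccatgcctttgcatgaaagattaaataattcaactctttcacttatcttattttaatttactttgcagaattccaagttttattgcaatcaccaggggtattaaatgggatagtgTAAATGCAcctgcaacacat

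ABCG11 and ABCG12 are transporters that carry wax and cutin precursors out of epidermal cells. ABCG11 (AT1G17840), whose printed promoter holds a pair of boxes, was read at 0.75, 0.79 and 0.99 TPM in WT and at 5.89, 6.19 and 5.70 TPM in rab8d-2. Its mean was 3.40 ± 0.15 TPM in atm-2 rab8d-2, 2.44 ± 0.19 in sog1-1 rab8d-2, 3.03 ± 0.37 in those labelled nac044-1 rab8d-2 and 3.07 ± 0.37 in nac085-1 rab8d-2. It was higher than in WT by 1.55 ± 0.14 to 1.97 ± 0.14 log2 in the 4 double mutants, and the log2 difference of sog1-1 rab8d-2 from atm-2 rab8d-2 was -0.41 ± 0.11 (adjusted p = 0.000809). ABCG12 averaged 1.54 TPM in WT, 8.12 TPM in rab8d-2 and 3.82 to 5.30 TPM in the double mutants. MYB94 (AT3G47600), a factor that activates wax genes, averaged 0.74 TPM in WT, 5.01 TPM in rab8d-2 and 1.77 to 3.21 TPM in the double mutants, with sog1-1 rab8d-2 lowest.

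3-Ketoacyl-CoA synthases (KCS) catalyse the first step of fatty acid elongation, and 5 of the 19 KCS genes of the table met all 3 conditions. No other KCS gene met the first 2. KCS16 had the largest ratio of the 15 cuticle and epidermis genes. Its libraries gave 0.38, 0.21 and 0.24 TPM in WT, 6.84, 6.21 and 6.20 TPM in rab8d-2 and 1.65 to 3.83 TPM in the libraries of the double mutants. Its lowest double mutant was nac085-1 rab8d-2, with a log2 difference from the libraries labelled nac044-1 rab8d-2 of -0.92 ± 0.14 (adjusted p = 1.50e-07). KCS6 (CER6), the main elongase of stem wax, and KCS12 were lowest in other genotypes. KCS6 averaged 0.273 TPM in WT, 2.67 TPM in rab8d-2, 0.927 TPM in atm-2 rab8d-2, 0.543 TPM in sog1-1 rab8d-2, 1.63 TPM in the libraries labelled nac044-1 rab8d-2 and 1.28 TPM in nac085-1 rab8d-2. KCS12 averaged 0.32 TPM in WT, 2.6 TPM in rab8d-2, 0.547 TPM in atm-2 rab8d-2 and 1.78 TPM in the libraries labelled nac044-1 rab8d-2, a difference between those double mutants of 1.76 ± 0.23 log2 (adjusted p = 3.60e-09). Summed over all 19 KCS genes the level was 332.8 to 337.5 TPM in WT and 264 to 264.9 TPM in rab8d-2, so the 5 members ran against the family's total.

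BDG1 and HTH are needed for a closed cuticle in shoots, and LACS1 activates long-chain fatty acids for wax and cutin. BDG1 averaged 0.65 TPM in WT, 6.03 TPM in rab8d-2 and 2.42 to 3.07 TPM in the double mutants, where no pair of double mutants was called different. HTH averaged 5.28 ± 0.22 TPM in WT, 17.3 ± 0.88 TPM in rab8d-2 and 8.43 to 10.8 TPM in the double mutants. LACS1 had the smallest ratio, with 2.24 TPM in WT, 5.98 TPM in rab8d-2 and 2.74 to 4.02 TPM in the double mutants. Some calls against WT in this group hung on 1 library. LACS1 was not called without WT replicate 2 in atm-2 rab8d-2 (0.27 log2), sog1-1 rab8d-2 (0.20) or the libraries labelled nac044-1 rab8d-2 (0.29), nor without replicate 3 of atm-2 rab8d-2 (0.34) or of sog1-1 rab8d-2 (0.16). KCS6 in sog1-1 rab8d-2 (0.98 log2) was not called without WT replicate 2 (0.85), WT replicate 3 (0.78) or replicate 1 of sog1-1 rab8d-2 (0.60). KCS12 in atm-2 rab8d-2 (0.83 log2) was not called without replicate 1 or 3 of either genotype (0.69 to 0.79).

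**Figure D2:**
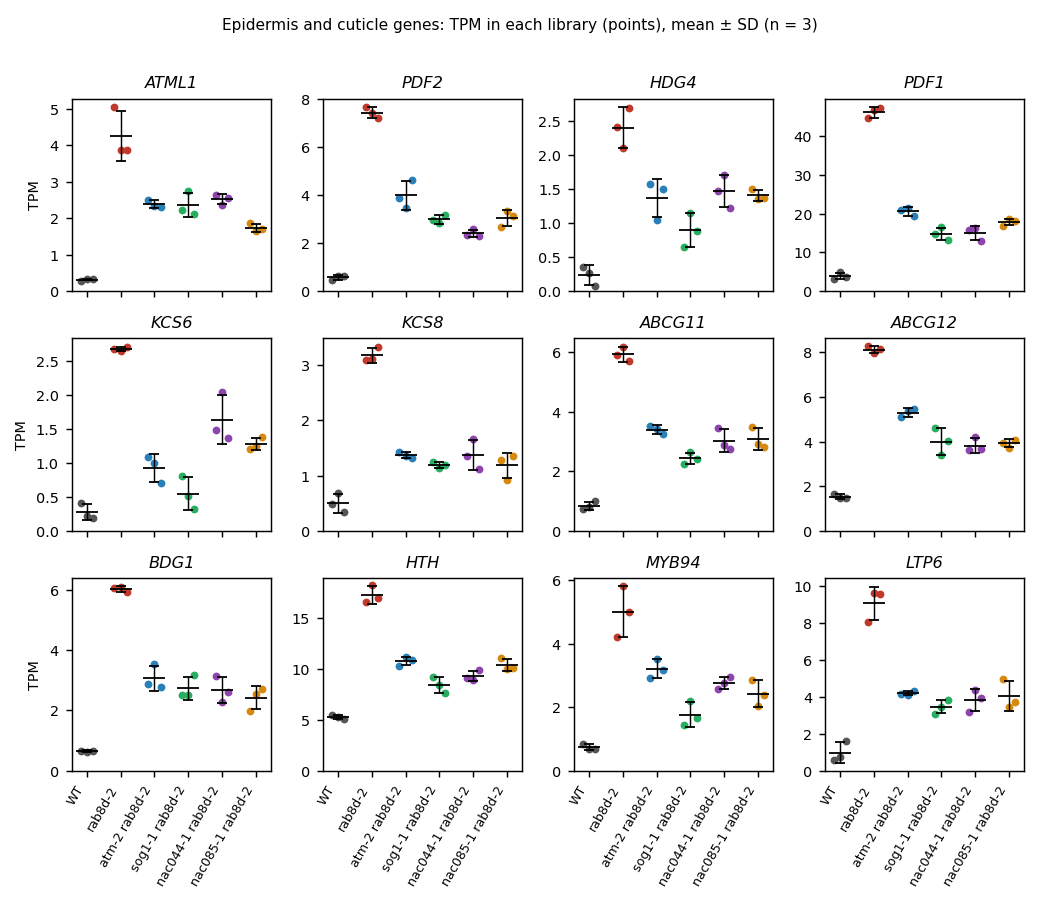
TPM per library (vertical axes, linear from 0) for 11 of the 15 epidermis and cuticle genes and the lipid transfer protein LTP6, in WT, rab8d-2 and the 4 double mutants (horizontal axis); points are libraries, with the mean ± SD of 3 in black. Apart from 1 sog1-1 rab8d-2 library of KCS6, the double mutants lie between WT and rab8d-2, for PDF1 at 12.86 to 21.52 TPM against 3.16 to 4.84 and 44.58 to 47.17.

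The other cuticle genes did not move as a block. Of 40 wax and cutin genes in the table, 13 met the first 2 conditions and 7 are members. The summed level of the 40 genes was 711.7 to 726.4 TPM in WT, 689.6 to 708.2 TPM in rab8d-2 and 582.7 to 811.8 TPM in the double mutants. Of the 33 that were tested, 16 were called higher and 10 lower than WT in atm-2 rab8d-2, 15 and 12 in sog1-1 rab8d-2, 13 and 13 in the libraries labelled nac044-1 rab8d-2, and 15 and 8 in nac085-1 rab8d-2. Of all genes tested, 35.1% and 33.5%, 28.8% and 29.2%, 29.3% and 28.8%, and 32.5% and 32.4% were called higher and lower, in the same order. On a separate list of 27 suberin and cutin genes, 4 met the first 2 conditions and KCS6 alone is a member. Its sum was 967.8 to 987.3 TPM in WT and 610.2 to 612.5 TPM in rab8d-2. With atm-2 it was 1012 to 1036 TPM, with sog1-1 701.7 to 723.7 TPM and with nac085-1 982.6 to 1032 TPM. The libraries labelled nac044-1 rab8d-2 gave 550.5 to 563 TPM. In bulk RNA, a change in the number of cells that express a gene and a change in RNA per cell cannot be told apart. Lists for other root cell types moved in the same libraries. Root hair markers (7 genes) summed to 430.3 to 456.8 TPM in WT and 280 to 305.9 TPM in rab8d-2, endodermis markers (8 genes) to 802.8 to 843.9 and 569.3 to 578.6 TPM, and xylem markers (8 genes) to 463.6 to 479.4 and 267.2 to 271.2 TPM. Shoot markers went the other way from the epidermis genes, with 22.52 to 23.67 TPM in WT and 14.19 to 15.87 TPM in rab8d-2. The part of these shifts in the results was not tested.

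GDSL lipases, a large family of secreted esterases and acyltransferases that includes cutin synthases, gave 7 members out of 85 genes in the table. Their ratio of rab8d-2 to WT was 4.26 to 23.9. The most abundant, AT3G16370, was read at 1.35, 1.44 and 1.01 TPM in WT and at 18.56, 20.81 and 19.30 TPM in rab8d-2. It averaged 10.4 ± 0.22 TPM in atm-2 rab8d-2, 7.11 ± 0.90 in sog1-1 rab8d-2, 7.79 ± 0.18 in those labelled nac044-1 rab8d-2 and 8.44 ± 0.95 in nac085-1 rab8d-2. The libraries of atm-2 rab8d-2 lay above those of every other double mutant, and all 12 lay between WT and rab8d-2. AT4G16220, AT4G16230 and AT4G16233 are neighbours on chromosome 4 and could share reads. They averaged 0.143, 0.303 and 0.427 TPM in WT, 5.72, 6.18 and 8.76 TPM in rab8d-2 and 2.12 to 3.48 TPM in the double mutants, and none differed between any pair of double mutants at the threshold. AT5G45670 averaged 10.5 TPM in rab8d-2, 6.04 TPM in atm-2 rab8d-2 and 2.73 TPM in sog1-1 rab8d-2, a log2 difference between those double mutants of -1.08 ± 0.13 (adjusted p = 6.76e-10). AT1G29670 ran the other way and was lowest in atm-2 rab8d-2. It averaged 0.38 TPM in WT, 2.83 TPM in rab8d-2, 0.78 TPM in atm-2 rab8d-2 and 1.85 to 2.02 TPM in the other double mutants, which exceeded atm-2 rab8d-2 by 1.23 ± 0.25 to 1.37 ± 0.25 log2. In all, 7 of the 7 were called higher than WT in atm-2 rab8d-2 and nac085-1 rab8d-2, and 6 of 7 in sog1-1 rab8d-2 and in the libraries labelled nac044-1 rab8d-2, where the share of all genes tested was 35.1%, 32.5%, 28.8% and 29.3%. The call for AT1G29670 in atm-2 rab8d-2 was lost without replicate 3 of that genotype (0.80 log2).

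Structural proteins of the wall formed a further group. Glycine-rich proteins, which strengthen walls, gave 5 members out of 61 genes. GRP5 (AT3G20470) was read at 0.82, 2.56 and 0.99 TPM in WT and at 38.47, 34.77 and 46.98 TPM in rab8d-2, a ratio of 25.8. It averaged 24.2 ± 1.83 TPM in atm-2 rab8d-2, 13.1 ± 1.66 in sog1-1 rab8d-2, 13.7 ± 1.56 in those labelled nac044-1 rab8d-2 and 16.4 ± 2.34 in nac085-1 rab8d-2. The atm-2 double mutant had the highest level of the 4, and sog1-1 rab8d-2 differed from it by -0.81 ± 0.12 log2 (adjusted p = 6.30e-08), while the libraries of the other 3 overlapped. AT4G29020 had the same order, with 4.83 TPM in WT, 40.3 TPM in rab8d-2, 24.4 TPM in atm-2 rab8d-2 and 13.9 to 16.8 TPM in the other double mutants. AT5G33390, of the same group and next to the member AT5G33395, with which it could share reads, had the opposite order. It averaged 0.0167 TPM in WT, 4.11 TPM in rab8d-2, 0.203 TPM in atm-2 rab8d-2 and 1.05 to 1.21 TPM in the other double mutants, which exceeded atm-2 rab8d-2 by 2.32 ± 0.43 to 2.59 ± 0.41 log2. CWLP (AT3G22120), a proline-rich cell wall-plasma membrane linker protein, was lowest in both genotypes with a nac mutation. Its mean was 5.11 TPM in WT, 36.9 TPM in rab8d-2, 14.3 TPM in sog1-1 rab8d-2, 10.9 TPM in the libraries labelled nac044-1 rab8d-2 and 10.0 TPM in nac085-1 rab8d-2, against 21.21, 20.73 and 18.35 TPM in atm-2 rab8d-2. The nac085-1 double mutant differed from atm-2 rab8d-2 by -1.01 ± 0.09 log2 (adjusted p = 1.93e-13).

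Enzymes that act on wall phenolics were also members. PRX25 (AT2G41480), a class III peroxidase, was the most abundant of the 182 genes in rab8d-2, with 80.96, 82.01 and 79.07 TPM against 23.99, 24.80 and 25.42 TPM in WT. It averaged 56.5 ± 3.58 TPM in atm-2 rab8d-2, 45.3 ± 1.26 in sog1-1 rab8d-2, 42.4 ± 3.14 in those labelled nac044-1 rab8d-2 and 59.8 ± 0.71 in nac085-1 rab8d-2. The double mutants fell into a higher pair and a lower pair, and nac085-1 rab8d-2 exceeded the libraries labelled nac044-1 rab8d-2 by 0.50 ± 0.05 log2 (adjusted p = 7.74e-12). DIR5 (AT1G64160), a dirigent protein that steers the coupling of phenolic radicals, averaged 0.593 TPM in WT and 21.8 TPM in rab8d-2, a ratio of 31.7, and 8.75 to 12.5 TPM in the double mutants. PA2, a second peroxidase, averaged 2.68 TPM in WT, 15.5 TPM in rab8d-2 and 6.53 to 10.8 TPM in the double mutants, with sog1-1 rab8d-2 highest. EXLB1, an expansin-like protein lay near the ratio limit. It averaged 11.1 TPM in WT, 22.3 TPM in rab8d-2 and 8.11 TPM in the libraries labelled nac044-1 rab8d-2, which was lower than WT (-0.50 ± 0.11 log2, adjusted p = 0.000158).

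Short proteins were a minority of the members. Among the members with a RefSeq protein, 12.6% were shorter than 100 residues, against 8.47% of the other genes that met the first 2 conditions and 4.90% of all protein-coding genes of the table. The median protein had 289, 330 and 369 residues in those sets. Defensin-like peptides gave 7 members out of 66 genes. Of these PDF2.1 (AT2G02120) alone was abundant, and it separated the double mutants. It was read at 3.24, 3.79 and 4.43 TPM in WT and at 43.51, 38.80 and 37.49 TPM in rab8d-2. It stood at 3.59, 4.42 and 2.26 TPM in atm-2 rab8d-2, at 1.56, 1.94 and 1.12 TPM in sog1-1 rab8d-2, at 13.42, 17.52 and 17.07 TPM in the libraries labelled nac044-1 rab8d-2 and at 17.23, 12.62 and 14.97 TPM in nac085-1 rab8d-2. The atm-2 and sog1-1 genotypes were at or below WT, and both genotypes with a nac mutation lay above every WT library. Against WT, PDF2.1 was lower in sog1-1 rab8d-2 (-1.28 ± 0.35 log2, adjusted p = 0.00171), not called in atm-2 rab8d-2 (-0.22 ± 0.29, adjusted p = 0.512), and higher by 1.99 ± 0.20 in the libraries labelled nac044-1 rab8d-2 (9.04e-12).

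Lipid transfer proteins, which bind fatty acids and are secreted in quantity by epidermal cells, gave 4 members out of 86 genes. Summed over the 86 genes, the level was 5636 to 5852 TPM in WT and 4002 to 4051 TPM in rab8d-2. The 4 members thus ran against the family's total. LTP6 averaged 0.98 TPM in WT, 9.08 TPM in rab8d-2 and 3.47 to 4.19 TPM in the double mutants, and no pair of double mutants was called different. AT1G55260 averaged 8.46 TPM in rab8d-2 and was called higher than WT by 2.61 ± 0.25 to 3.01 ± 0.23 log2 in the 4 double mutants. LTP3 averaged 10.5 TPM in WT, 23.4 TPM in rab8d-2 and 8.21 to 14.2 TPM in the double mutants. It was called higher than WT in nac085-1 rab8d-2 (0.38 ± 0.13 log2, adjusted p = 0.0123), where libraries overlapped. In sog1-1 rab8d-2 it was called lower (-0.34 ± 0.15, 0.0499), and in the other double mutants it was not called. These calls were lost under 2 and 8 alternative settings.

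Transcription factors among the members differed in how far the double mutants lowered them. WRKY28 (AT4G18170), a stress-responsive WRKY factor, had one of the largest ratios, 41.3. It was read at 0.05, 0.22 and 0.05 TPM in WT and at 7.93, 8.96 and 8.41 TPM in rab8d-2. It averaged 4.11 ± 0.57 TPM in atm-2 rab8d-2, 4.60 ± 0.22 in sog1-1 rab8d-2, 1.90 ± 0.46 in those labelled nac044-1 rab8d-2 and 1.86 ± 0.61 in nac085-1 rab8d-2. The atm-2 and sog1-1 genotypes lay above both genotypes with a nac mutation, with no overlap, and nac085-1 rab8d-2 differed from sog1-1 rab8d-2 by -1.37 ± 0.18 log2 (adjusted p = 3.71e-09). Of 63 WRKY genes in the table, 11 met the first 2 conditions and 5 are members (WRKY28, WRKY38, WRKY50, WRKY54 and WRKY59). WRKY50 averaged 0.213 TPM in WT, 1.70 TPM in rab8d-2 and 0.683 to 1.22 TPM in the double mutants. WRKY54 averaged 0.46 TPM in WT, 1.70 TPM in rab8d-2 and 0.313 to 0.77 TPM in the double mutants, and was not called different from WT in any. WRKY59 had no reads in WT, 1.05 TPM in rab8d-2 and 0.06 to 0.64 TPM in the double mutants, and was too scarce to test.

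NAC103 (AT5G64060), a NAC factor known as a SOG1 target and from the response to unfolded proteins in the endoplasmic reticulum, was the only one of 29 DNA damage genes among the members. Its libraries gave 3.99, 4.28 and 4.24 TPM in WT and at 19.95, 19.72 and 18.88 TPM in rab8d-2. It stood at 6.98, 7.65 and 8.04 TPM in atm-2 rab8d-2, at 9.20, 8.34 and 9.16 TPM in sog1-1 rab8d-2, at 5.10, 4.68 and 5.22 TPM in the libraries labelled nac044-1 rab8d-2 and at 5.11, 5.94 and 6.12 TPM in nac085-1 rab8d-2. Both genotypes with a nac mutation were lower than atm-2 rab8d-2 and sog1-1 rab8d-2, with no overlap, and just above WT. NAC103 was higher than WT by 1.12 ± 0.10 log2 in sog1-1 rab8d-2 (adjusted p = 3.59e-14), by 0.82 ± 0.10 in atm-2 rab8d-2 (6.98e-10) and by 0.41 ± 0.11 in nac085-1 rab8d-2 (0.000774). It was not called in the libraries labelled nac044-1 rab8d-2 (0.21 ± 0.11, adjusted p = 0.0989).

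The SOG1 consensus, searched as CTTNNNNNNNAAG on both strands, was found in the 300-base window of 28 of 175 members (16.0%), 13.15% of the other genes that met the first 2 conditions and 11.7% of all protein-coding genes. In the longer window the shares were 35.4%, 35.7% and 34.6%. The window of NAC103 is printed because this member is a known SOG1 target. It lies on the minus strand of chromosome 5 in RefSeq's TAIR10.1, and capitals mark the consensus, which starts at the first base of the gene, position 0.
NAC103: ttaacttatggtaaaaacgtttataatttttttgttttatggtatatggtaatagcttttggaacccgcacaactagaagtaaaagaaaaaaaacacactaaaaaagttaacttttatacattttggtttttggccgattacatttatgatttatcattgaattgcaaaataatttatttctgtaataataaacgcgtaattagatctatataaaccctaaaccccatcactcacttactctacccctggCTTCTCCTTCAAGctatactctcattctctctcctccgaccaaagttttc

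Other factors differed in their order among the double mutants. NAC011 averaged 0.24 TPM in WT, 3.95 TPM in rab8d-2, 2.30 TPM in atm-2 rab8d-2, 1.08 TPM in sog1-1 rab8d-2, 0.747 TPM in the libraries labelled nac044-1 rab8d-2 and 2.44 TPM in nac085-1 rab8d-2. It was higher in nac085-1 rab8d-2 than in the libraries labelled nac044-1 rab8d-2 by 1.71 ± 0.29 log2 (adjusted p = 1.72e-06). NAC042 (JUB1), a regulator of reactive oxygen species and ageing, averaged 2.65 TPM in WT, 7.65 TPM in rab8d-2 and 2.49 to 4.91 TPM in the double mutants. ERF115, a factor of stem cell divisions and regeneration in the root, averaged 0.83 TPM in WT, 4.33 TPM in rab8d-2, 2.29 TPM in atm-2 rab8d-2, 1.58 TPM in sog1-1 rab8d-2, 0.853 TPM in the libraries labelled nac044-1 rab8d-2 and 1.37 TPM in nac085-1 rab8d-2. The libraries labelled nac044-1 rab8d-2 were not called different from WT (-0.02 ± 0.34 log2, adjusted p = 0.976) and differed from atm-2 rab8d-2 by -1.42 ± 0.27 log2 (1.04e-05). AT5G61890, annotated as an integrase-type DNA-binding superfamily protein, averaged 0.847 TPM in WT and 11.8 TPM in rab8d-2. It stood at 2.67 to 4.64 TPM in the double mutants and was called higher than WT in all 4.

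Genes of plastids and of translation were also members. ACC2 (AT1G36180) encodes the homomeric acetyl-CoA carboxylase that can enter plastids and supply fatty acid synthesis beside the multi-subunit enzyme. It was read at 3.99, 4.00 and 3.78 TPM in WT and at 36.14, 35.67 and 34.16 TPM in rab8d-2. It averaged 25.4 ± 0.52 TPM in atm-2 rab8d-2, 22.7 ± 0.25 in sog1-1 rab8d-2, 13.8 ± 0.34 in those labelled nac044-1 rab8d-2 and 21.2 ± 0.29 in nac085-1 rab8d-2. The 6 genotypes did not overlap at any step of that order. ACC2 was higher than WT by 1.76 ± 0.04 log2 in the libraries labelled nac044-1 rab8d-2 (adjusted p = 1.50e-34) and by 2.66 ± 0.04 in atm-2 rab8d-2 (3.02e-44). EMB1030 (AT5G22800), an alanyl-tRNA synthetase of organelles, averaged 10.3 ± 0.34 TPM in WT and 62.1 ± 2.67 TPM in rab8d-2. Its double mutants averaged 33.2 TPM with atm-2, 41.0 TPM with sog1-1, 29.0 TPM in the libraries labelled nac044-1 rab8d-2 and 26.2 TPM with nac085-1, so sog1-1 rab8d-2 was highest, 0.36 ± 0.04 log2 above atm-2 rab8d-2 (adjusted p = 2.56e-12). The plastid-encoded members ATCG00140, ATCG00670 and ATCG00790 were read at up to 5.68 TPM per library, in libraries made by oligo(dT) selection, which captures little plastid RNA.

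Hormone genes were single members of their families. GH3.3, which conjugates auxin to amino acids, averaged 0.437 TPM in WT, 5.16 TPM in rab8d-2, 2.00 TPM in the libraries labelled nac044-1 rab8d-2 and 2.81 to 3.36 TPM in the other double mutants. PID, a kinase that sets the polarity of PIN auxin carriers, averaged 3.68 TPM in WT, 8.87 TPM in rab8d-2 and 4.33 to 5.67 TPM in the double mutants. GA2OX2, which inactivates gibberellins, averaged 3.33 TPM in WT and 15.0 TPM in rab8d-2. Its double mutants averaged 7.56 to 9.50 TPM and were higher than WT by 1.2 ± 0.11 to 1.46 ± 0.10 log2. RGL3, a DELLA repressor of gibberellin signalling, averaged 3.58 TPM in WT, 10.3 TPM in rab8d-2, 3.26 TPM in atm-2 rab8d-2 and 7.69 TPM in the libraries labelled nac044-1 rab8d-2. The difference between those double mutants was 1.23 ± 0.09 log2 (adjusted p = 3.87e-16). CLE44, a peptide signal of vascular stem cells, averaged 1.91 TPM in WT, 5.52 TPM in rab8d-2 and 2.34 to 3.48 TPM in the double mutants.

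Defence and detoxification gave further members. GSTF14, a glutathione transferase, averaged 0.893 TPM in WT, 15.3 TPM in rab8d-2 and 4.44 to 5.90 TPM in the double mutants. CYP71A12, a cytochrome P450 of indolic defence compounds, averaged 0.87 TPM in WT, 3.04 TPM in rab8d-2 and 1.3 to 2.1 TPM in the double mutants. ABCA10, ABCB14 and ABCB2 are the other ABC transporters in the set. ABCA10 averaged 0.557 TPM in WT, 11.3 TPM in rab8d-2 and 4.42 to 6.83 TPM in the double mutants, and ABCB14 averaged 0.20, 3.56 and 1.76 to 2.63 TPM. ABCB2 averaged 0.263 TPM in WT, 1.09 TPM in rab8d-2 and 0.287 TPM in sog1-1 rab8d-2, which was not called different from WT (0.16 ± 0.27 log2, adjusted p = 0.655). AT1G33790, a jacalin lectin, also came near WT in sog1-1 rab8d-2 alone. It was read at 5.95, 6.54 and 5.69 TPM in WT, at 58.19, 56.34 and 52.83 TPM in rab8d-2 and at 6.56, 6.99 and 6.55 TPM in sog1-1 rab8d-2, while the other double mutants averaged 24.8 to 30.3 TPM. The sog1-1 rab8d-2 libraries lay just above WT and far below those of the other double mutants, with a log2 difference from atm-2 rab8d-2 of -1.94 ± 0.06 (adjusted p = 7.45e-32). Unlike ABCB2, AT1G33790 was called higher than WT in sog1-1 rab8d-2 (0.19 ± 0.08 log2, adjusted p = 0.0365), a call lost under 4 alternative settings.

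Other abundant members were enzymes and signalling proteins. ALDH3F1, an aldehyde dehydrogenase, averaged 4.67 TPM in WT, 26.3 TPM in rab8d-2 and 13.2 to 17.9 TPM in the double mutants, higher than WT by 1.46 ± 0.08 to 1.90 ± 0.08 log2. TPPD, a trehalose-phosphate phosphatase, averaged 1.89 TPM in WT, 13.2 TPM in rab8d-2 and 5.48 to 8.30 TPM in the double mutants. ROP9, a small GTPase of plants, averaged 3.29 TPM in WT, 11.8 TPM in rab8d-2 and 5.09 to 7.92 TPM in the double mutants, with every atm-2 rab8d-2 library above those of the other 3. AT1G78210, an alpha/beta-hydrolase, was read at 14.62, 13.97 and 14.59 TPM in WT and at 37.53, 39.25 and 34.80 TPM in rab8d-2. It averaged 14.0 TPM in atm-2 rab8d-2, 18.9 TPM in nac085-1 rab8d-2 and 27.4 and 26.9 TPM in sog1-1 rab8d-2 and the libraries labelled nac044-1 rab8d-2. The atm-2 double mutant was not called different from WT (-0.08 ± 0.08 log2, adjusted p = 0.322), and the other 3 were called higher. AT3G54150, a predicted methyltransferase, averaged 22.6 TPM in WT, 52.6 TPM in rab8d-2, 31.5 and 35.4 TPM in sog1-1 rab8d-2 and the libraries labelled nac044-1 rab8d-2, and 15.8 and 18.1 TPM in atm-2 rab8d-2 and nac085-1 rab8d-2.

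Some members were seen in few genotypes. AT2G05642, annotated as a nucleic acid-binding OB-fold-like protein, had no reads in WT, atm-2 rab8d-2 or sog1-1 rab8d-2. It was read at 9.13, 9.21 and 8.75 TPM in rab8d-2, at 0.20, 0.24 and 0.28 TPM in the libraries labelled nac044-1 rab8d-2 and at 0.04 TPM in 1 library of nac085-1 rab8d-2. With a floor of 3 counts over the group, 693 counts in rab8d-2 against 0 make it at least 230.4-fold higher there than in WT, counting error only. AT2G05635, annotated as a DNA repair helicase of the RAD3/XP-D subfamily, was read at 12.73, 14.28 and 14.97 TPM in rab8d-2, not in WT or sog1-1 rab8d-2, and averaged 5.28 TPM in the libraries labelled nac044-1 rab8d-2. With 185 counts in rab8d-2 it was at least 61.5-fold higher there than in WT. AT1G52110, a mannose-binding lectin, averaged 0.0267 TPM in WT, 6.73 TPM in rab8d-2 and 0.46 TPM in the libraries labelled nac044-1 rab8d-2, against 4.32 TPM in atm-2 rab8d-2. AT3G27400, a pectin lyase-like protein, and AT5G53240, with a DUF295 domain, were also lowest there, at 0.223 and 0.18 TPM against 3.45 and 2.27 TPM in rab8d-2, and neither was called different from WT.

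The 36 members that could not be tested averaged 1.0 to 12.2 TPM in rab8d-2 (median 1.42), from 1 to 42 counts over its 3 libraries (median 19). A few of them rest on a single library. LCR35 was read at 7.26 TPM in replicate 1 of rab8d-2 and ATCG00140 at 5.68 TPM in the same library, each from 1 count, and both were at 0 elsewhere. LCR22 was read at 7.43 TPM in rab8d-2 replicate 3 and at 4.34 TPM in 1 of the libraries labelled nac044-1 rab8d-2. SAE1B, which passed the filter, was read at 4.44 TPM in rab8d-2 replicate 3 and at 0 in the other rab8d-2 libraries, at 1.48 to 1.53 TPM in 1 library each of the double mutants with nac085-1, atm-2 and sog1-1, and has a near-identical copy in the genome, so its reads are uncertain. These entries meet the conditions on means without a difference that the libraries of rab8d-2 share.

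Set against WT, the double mutants kept many of the tested members up. In atm-2 rab8d-2, 107 of the 146 were called higher and 9 lower, where 35.1% and 33.5% of all genes tested were called higher and lower. In sog1-1 rab8d-2 the members gave 116 and 3 (all genes 28.8% and 29.2%), in the libraries labelled nac044-1 rab8d-2 118 and 2 (29.3% and 28.8%), and in nac085-1 rab8d-2 109 and 9 (32.5% and 32.4%). At least 2-fold higher than WT were 85, 91, 92 and 83 of the 146, against 5.46%, 4.95%, 3.44% and 5.78% of all genes tested, and 6, 2, 1 and 7 were at least 2-fold lower, against 7.48%, 3.29%, 4.23% and 5.98%. The median log2 fold change over WT was 1.38, 1.32, 1.38 and 1.34 for the members, and within 0.01 of 0 for all genes. The choice took genes that were low in WT, and the same WT libraries enter these comparisons, so a shift above 0 was favoured by the choice.

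**Figure D3:**
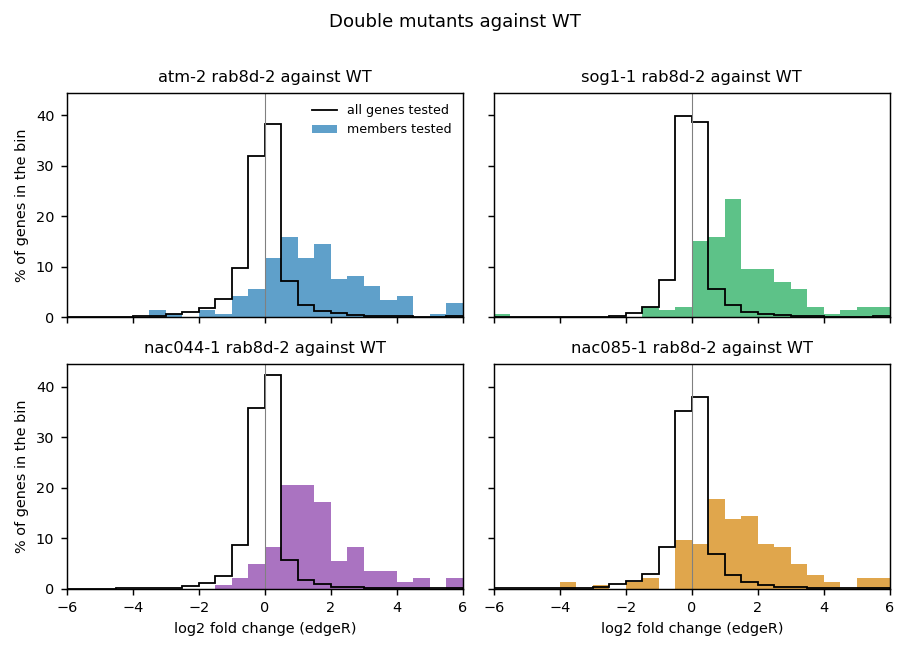
Distribution of the log2 fold change of each double mutant over WT (horizontal axis), in 4 panels; bars give the share of the 146 tested members and the black line the share of all 19981 genes tested, with values past the ends of the axis put in the outermost bins. The members' medians lie at 1.32 to 1.38, and those of all genes near 0.

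Few members were below WT. In atm-2 rab8d-2 the 9 called lower were AT3G54150, PP2-B13, AT5G40000, AT5G41740, AT1G34050, AT5G22545, WRKY38, AT5G21960 and BHLH92. In nac085-1 rab8d-2 the 9 were AT1G44830, AT3G54150, PP2-B13, AT5G22530, AT5G41740, WRKY38, AT1G34050, BHLH92 and AT5G21960. Of these, PP2-B13 in atm-2 rab8d-2 (-0.54 ± 0.25 log2) was not called without WT replicate 1 or 3 or any replicate of its own genotype (-0.36 to -0.59), nor AT5G22530 in nac085-1 rab8d-2 (-1.18 ± 0.41) without replicate 2 of WT (-0.90) or of its own genotype (-0.88), nor AT1G44830 there (-0.38 ± 0.14) without WT replicate 1 or replicate 1 or 3 of nac085-1 rab8d-2 (-0.28 to -0.35). In sog1-1 rab8d-2 they were LTP3 (-0.34 ± 0.15 log2, adjusted p = 0.0499, not called without any 1 of WT replicates 2 and 3 or the sog1-1 rab8d-2 replicates, -0.22 to -0.35), PDF2.1 and AT1G34050. AT1G34050 had 52 counts over the 3 WT libraries and 0 in sog1-1 rab8d-2, at least 17.3-fold lower. In the libraries labelled nac044-1 rab8d-2 they were EXLB1 and AT5G21960 (-1.12 ± 0.35 log2, not called without WT replicate 2, -0.81, or without replicate 2 of that genotype, -0.80).

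BHLH92 and WRKY38 differed widely among the double mutants. BHLH92 (AT5G43650), a stress-induced basic helix-loop-helix factor, was read at 6.71, 6.60 and 3.51 TPM in WT and at 16.25, 15.89 and 15.73 TPM in rab8d-2. It stood at 8.82, 6.82 and 9.58 TPM in sog1-1 rab8d-2 and at 7.42, 8.79 and 8.86 TPM in the libraries labelled nac044-1 rab8d-2. Its level was 0.40, 0.57 and 0.62 TPM in atm-2 rab8d-2 and at 0.28, 0.48 and 0.38 TPM in nac085-1 rab8d-2. The last 2 genotypes were below every WT library, and the first 2 were above every one of them. The log2 difference from WT was -3.42 ± 0.29 in atm-2 rab8d-2 (adjusted p = 1.38e-14) and -3.86 ± 0.31 in nac085-1 rab8d-2 (2.96e-15). Its calls above WT in sog1-1 rab8d-2 (0.56 ± 0.16 log2) and in the libraries labelled nac044-1 rab8d-2 (0.48 ± 0.16) were lost without WT replicate 3 (0.31 and 0.23).

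WRKY38 (AT5G22570), a repressor of basal defence, was read at 4.38, 3.36 and 3.49 TPM in WT and at 18.96, 19.06 and 17.81 TPM in rab8d-2. It stood at 10.72, 10.56 and 7.78 TPM in sog1-1 rab8d-2, at 6.51, 7.06 and 6.40 TPM in the libraries labelled nac044-1 rab8d-2, at 0.68, 0.43 and 0.68 TPM in atm-2 rab8d-2 and at 1.42, 1.07 and 1.08 TPM in nac085-1 rab8d-2. No 2 of the 6 genotypes overlapped. WRKY38 was higher in sog1-1 rab8d-2 than in atm-2 rab8d-2 by 4.06 ± 0.19 log2 (adjusted p = 1.31e-23) and lower in nac085-1 rab8d-2 than in the libraries labelled nac044-1 rab8d-2 (-2.47 ± 0.18, 1.82e-16).

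Between double mutants, sog1-1 rab8d-2 exceeded atm-2 rab8d-2 in 39 of the 146 tested members and was lower in 44, where 27.8% and 30% of all genes tested were called. At least 2-fold, 20 members (13.7%) were higher and 12 (8.22%) lower, against 5.76% and 2.29% of all genes. Between the genotypes with a nac mutation, nac085-1 rab8d-2 was higher than the libraries labelled nac044-1 rab8d-2 in 22 members and lower in 39 (29.3% and 29.2% of all genes), and at least 2-fold in 8 (5.48%) and 18 (12.3%), against 4.59% and 4.4%. These comparisons share no library. The members at least 2-fold higher in sog1-1 rab8d-2 than in atm-2 rab8d-2 and at least 2-fold lower in nac085-1 rab8d-2 than in the libraries labelled nac044-1 rab8d-2 numbered 10, which is 6.85% of the 146, and 608 of all genes (3.04%) met both. As a share of each list, these 10 are 10 of 20 and 10 of 18. Over all genes tested, the 608 are 608 of 1151 and 608 of 879. The overlap was thus no larger a share among the members than among all genes. NAC011 and AT1G30160 met both in the opposite direction.

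The 10 were BHLH92, WRKY38, AT5G21960, ERF53, AT5G40000, AT5G22530, PP2-B13, AT3G14710, AT5G41740 and AT3G28580. AT5G41740, annotated as a disease resistance protein of the TIR-NBS-LRR class, was read at 5.36, 4.92 and 5.40 TPM in WT and at 16.04, 16.50 and 15.98 TPM in rab8d-2. It averaged 10.7 ± 0.20 TPM in sog1-1 rab8d-2, 2.05 ± 0.22 in atm-2 rab8d-2 and 1.88 ± 0.23 in nac085-1 rab8d-2, and was read at 10.99, 11.15 and 10.96 TPM in the libraries labelled nac044-1 rab8d-2. Within the pair of high and the pair of low genotypes the libraries overlapped or nearly touched, and between the pairs they were far apart. AT3G28580, an AAA-type ATPase, kept its order above WT instead. It averaged 1.79 TPM in WT, 30.1 TPM in rab8d-2, 15.4 and 16.6 TPM in sog1-1 rab8d-2 and the libraries labelled nac044-1 rab8d-2, and 6.30 and 5.37 TPM in atm-2 rab8d-2 and nac085-1 rab8d-2, the last higher than WT by 1.53 ± 0.14 log2 (adjusted p = 4.08e-13). AT5G21960, annotated as an integrase-type DNA-binding superfamily protein, averaged 0.88 TPM in WT and 2.34 TPM in rab8d-2. It was at 0.557 TPM or below in every double mutant.

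**Figure D4:**
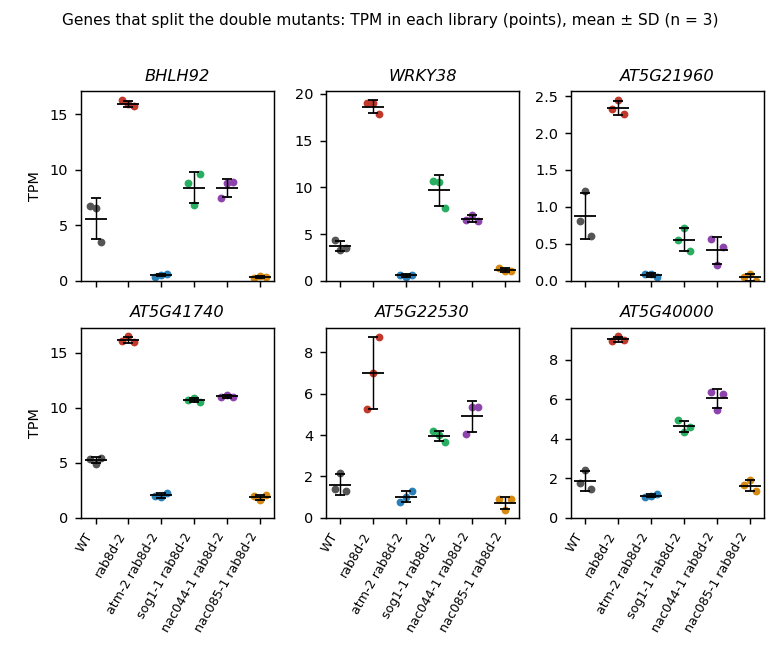
TPM per library (vertical axes, linear from 0) of BHLH92, WRKY38, AT5G21960, AT5G41740, AT5G22530 and AT5G40000 in WT, rab8d-2 and the 4 double mutants (horizontal axis); points are libraries, with the mean ± SD of 3 in black. In atm-2 rab8d-2 and nac085-1 rab8d-2 the level is near or below WT, for WRKY38 at 0.43 to 1.42 TPM against 3.36 to 4.38 TPM in WT.

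The same split ran through other lists of genes in these libraries, none of whose genes is a member. The summed level of 14 touch and wounding genes, none at 0, was 3376 to 3450 TPM in WT, 2712 to 2733 TPM in rab8d-2, 2203 to 2261 TPM in sog1-1 rab8d-2 and 2435 to 2533 TPM in the libraries labelled nac044-1 rab8d-2. The sum was 479.9 to 487.5 TPM in atm-2 rab8d-2 and 620.3 to 638 TPM in nac085-1 rab8d-2. For 24 jasmonate genes the sums were 2933 to 2991, 3206 to 3222, 3031 to 3066, 3639 to 3798, 813.5 to 841.2 and 983.9 to 1018 TPM, in the same order. Their part in the split among the members was not tested. Another split, seen for WRKY28, set the atm-2 and sog1-1 genotypes apart from both genotypes with a nac mutation. There, 7 dawn clock genes, none a member, summed to 174.9 to 179.3 TPM with atm-2 and 164.8 to 172.2 TPM with sog1-1. Their sum was 42.94 to 45.02 TPM in the libraries labelled nac044-1 rab8d-2 and 38.91 to 40.59 TPM with nac085-1. It was 47.83 to 52.51 TPM in WT and 35.07 to 35.79 TPM in rab8d-2. The part of these genes in that split was not tested.

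**Figure D5:**
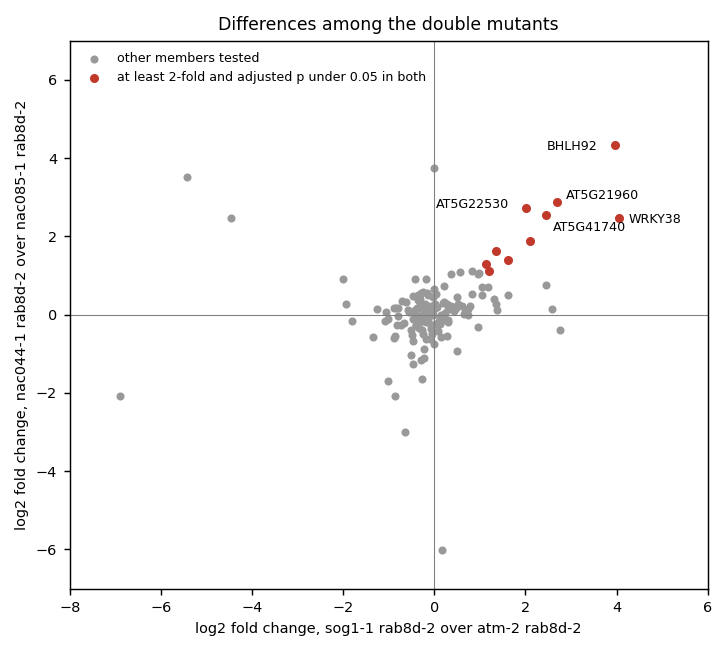
Log2 fold change of sog1-1 rab8d-2 over atm-2 rab8d-2 (horizontal axis) against that of the libraries labelled nac044-1 rab8d-2 over nac085-1 rab8d-2 (vertical axis) for the tested members. Most genes lie near 0 on both axes, and the 10 genes at least 2-fold up on both, with BHLH92 and WRKY38 farthest to the right, lie at the upper right.

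The remaining pairs of double mutants gave these counts. The libraries labelled nac044-1 rab8d-2 exceeded atm-2 rab8d-2 in 39 members and were lower in 46 (31.8% and 33.9% of all genes), with 24 and 15 at least 2-fold (6.34% and 5.08%). They exceeded sog1-1 rab8d-2 in 31 and were lower in 39 (26.1% and 26.1%), with 11 and 7 at least 2-fold (1.19% and 3.28%). The nac085-1 double mutant exceeded atm-2 rab8d-2 in 19 and was lower in 40 (24.3% and 24%), with 6 and 9 at least 2-fold (2.06% and 1.36%). It exceeded sog1-1 rab8d-2 in 27 and was lower in 44 (28% and 28.5%), with 11 and 22 at least 2-fold (2.62% and 4.72%). Over all 182 genes, the lowest mean among the double mutants was that of atm-2 rab8d-2 for 35, sog1-1 rab8d-2 for 51, the libraries labelled nac044-1 rab8d-2 for 45 and nac085-1 rab8d-2 for 51, and the highest was theirs in 63, 48, 47 and 24.

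The DNA damage list holds the pathway of the added mutations. Of its 29 genes in the table, 7 met the first 2 conditions and 1, NAC103, met the third, where 756 and 182 of all 25537 genes did. Summed over the list, the level was 378.9 to 387.5 TPM in WT, 584.7 to 603.7 TPM in rab8d-2, 395.1 to 411.7 TPM in sog1-1 rab8d-2, 432.7 to 449.4 TPM in nac085-1 rab8d-2, 510.2 to 524 TPM in atm-2 rab8d-2 and 593.8 to 627.8 TPM in the libraries labelled nac044-1 rab8d-2. Such a sum can rest on 1 gene, and NAC044 RNA by itself was far above its rab8d-2 level in the last of these. The list's median log2 fold change over WT was 0.194 in those libraries and 0.237 in atm-2 rab8d-2. It was 0.084 in nac085-1 rab8d-2 and -0.085 in sog1-1 rab8d-2. Of the 28 tested, 17 were called higher and 4 lower than WT in atm-2 rab8d-2, 10 and 8 in sog1-1 rab8d-2, 15 and 2 in the libraries labelled nac044-1 rab8d-2, and 11 and 6 in nac085-1 rab8d-2. The shares of all genes tested called higher and lower were 35.1% and 33.5%, 28.8% and 29.2%, 29.3% and 28.8%, and 32.5% and 32.4%, in the same order. Lists of CDK inhibitors (11 genes), of G2 and mitosis (27), of S phase (20) and of the root meristem (16) held no member. Neither did any list of root cell type markers. For the CDK inhibitors, 10 further names were not matched. In these lists 1 CDK inhibitor and 4 root meristem genes met the first 2 conditions. With 182 members among 25537 genes, lists this short would hold few, so an absence there carries no weight. In all, 26 of the 182 genes stood in one of 39 lists. Some listed names were not matched to a gene, 9 of them on a list of ERF factors, so this count can be too low.

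The members lay on all 5 nuclear chromosomes. Chromosomes 1 to 5 carried 47, 30, 27, 31 and 44 of them, or 25.8%, 16.5%, 14.8%, 17.0% and 24.2%, where the whole table has 26.1%, 15.7%, 19.8%, 15.3% and 23.0%. Next to another member lay 17 genes (9.50%), in 9 pairs. Pairs of likely relatives were AT4G16220 and its neighbours, ORP4A and ORP4B, PP2-B13 and PP2-B14, and AT1G52100 and AT1G52110, whose reads could be shared in part. AT5G33390 and AT5G33395 were neighbours too, and their reads could also be shared. ORP4A, an oxysterol-binding protein relative, averaged 0.143 TPM in WT, 5.68 TPM in rab8d-2 and 1.94 to 3.48 TPM in the double mutants, and ORP4B 0.27, 3.64 and 1.61 to 2.44 TPM. Further motifs searched on both strands of the 300-base window were the G-box CACGTG (5.71% of members, 8.26% of all protein-coding genes), the DRE core CCGAC (8.0% and 15.4%), ACGCGT (6.29% and 2.30%), the W-box core TTGAC (57.7% and 51.0%), the MYB3R core AACGG (18.3% and 25.2%), the evening element core AATATCT (14.3% and 11.5%), GCCGCC (3.43% and 2.58%) and CTTGNNNNNCAAG (1.14% and 0.891%), the last a special case of the SOG1 consensus.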

How the data were processed

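RNA of roots was measured by RNA-seq in 18 libraries, 3 for each of 6 genotypes, with the genotype taken from the library titles. The authors deposited 1 table of estimated counts, TPM and FPKM per gene, made with RSEM 1.3.1 per the submitters' processing notes. The aligner, genome build, annotation and strand setting are not given in the sources used here. Genome coordinates are therefore not printed, and reads of overlapping or near-identical genes cannot be assigned with certainty. The deposited TPM values, which carry a correction for transcript length, chose the members and are the levels printed. The deposited FPKM values were not used for any result. Of the deposited estimated counts, 1.56% to 1.75% per library were not whole, and all were rounded before testing. Library totals lay close together, so depth differed little between genotypes.

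Tests used edgeR 4.0.16 in R 4.3.3 (filterByExpr, TMM scaling with factors of 0.970 to 1.02, quasi-likelihood fit over all 18 libraries, Benjamini-Hochberg adjustment over 19981 genes). The model was tested on simulated data. The common biological coefficient of variation was 2.38%. DESeq2 1.42.0 gave an alternative, with limma 3.58.1 as edgeR's base. Tables and figures were made with Python 3.11.15, pandas 2.3.3, numpy 2.4.6 and matplotlib 3.10.9. Where a group had no reads, a fold was taken against a floor of 3 counts over the group, for counting error only. RefSeq's annotation of TAIR10.1 matched 25462 of the 25537 loci and gave names, products and promoter sequences.

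The members and gene lists were chosen with earlier results of these data known. Genes were named by a fixed rule: the highest ratios, the smallest shares left, the highest levels, the extreme called changes of each comparison, members of lists and of families with at least 3 members, genes next to each limit, and the mutated genes. Other named genes, the group of 15 epidermis and cuticle genes and the L1 box were chosen after the values were seen. Replicate numbers were not used as pairs.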

Additional observations from a re-analysis of the deposited data

How the results depend on the processing

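The number of members depended on the limit set for the double mutants: 37 genes remained with a limit of 0.5 and 305 with a limit of 0.9. Leaving the atm-2 rab8d-2 and nac085-1 rab8d-2 libraries out of the choice gave 288 genes, and leaving out those labelled nac044-1 rab8d-2 gave 225, both tried after seeing the data. The other ways of choosing gave 143 to 226 genes. Without 1 library in turn, the members called lower than WT in the libraries labelled nac044-1 rab8d-2 numbered 1 to 2. With the replicate block, the members called higher and lower than WT numbered 107 and 9 in atm-2 rab8d-2, 115 and 2 in sog1-1 rab8d-2, 117 and 2 in the libraries labelled nac044-1 rab8d-2 and 109 and 9 in nac085-1 rab8d-2. The replicate numbers did not pair the samples: correlations of same-numbered libraries were -0.139 to 0.0823 over 45 pairs, and 6 of 18 libraries correlated best with their own number. Of 611 calls of named genes, 88 were lost under at least 1 alternative, and 0 of 7292 alternative values changed direction. Of these values, 270 lost the call, 211 of them on leaving out 1 library and 47 with DESeq2. Depth kept 36 members with few reads out of the tests.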
